A study of Mus musculus with 16 samples.

Results

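The genes described here are 43 members of the cell cycle programme, of the 36950 genes in a table of single-cell UMI counts (counts of unique molecular identifiers, each standing for a captured transcript) from the left ventricle of mice of the transverse aortic constriction (TAC) model. They were chosen by name and sorted by the phase in which they are known to act, 16 in an S-phase list, 24 in a G2/M list and 3 (Neil3, Stmn1 and Hmgb2) in neither. In TAC, a band around the aorta loads the left ventricle with pressure. The 16 mice, all male, were grouped by disease stage in weeks, namely 0w (2 mice), 2w (2 mice), 5w (7 mice), 8w (3 mice) and 11w (2 mice). Their strain, genotype and age, and whether 0w mice had an operation, are not stated by the labels, so 0w is only the earliest stage. Heart tissue was sliced and digested by either of a pair of recipes, a protease with collagenase that favours myocytes or a papain enzyme that favours the other cells. The 11492 cells carried the authors' annotation, whose codes the labels do not explain. From markers, CM were read as cardiomyocytes (97.9% of cells with at least 2 of 7 such markers at the depth used below), FB as fibroblasts (92.5%), MP as macrophages (93.9%) and EC as endothelial cells (73.3%). The code T was read as T cells, although only 35.3% of these cells had at least 2 T cell markers, and GN is left unread.

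A cell that divides first copies its DNA in S phase and then parts the copies in mitosis. In S phase the helicase made of the Mcm2 to Mcm7 proteins opens the DNA, Pcna clamps the polymerase onto it, and Rrm1, Rrm2 and Tyms supply nucleotides. Before and during mitosis, cyclins A and B activate Cdk1, Top2a untangles the chromosomes, and the kinetochore, spindle and checkpoint proteins of the G2/M list pull them apart. Adult mouse cardiomyocytes have largely left the cycle, whereas resident macrophages of the heart renew themselves in part by local division. The E2F transcription factors are known to switch on many S-phase genes, and the DREAM and MuvB complexes act on many G2/M genes through the cell cycle homology region (CHR), often near CCAAT boxes bound by NF-Y.

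Promoters are shown because the sequence, which played no part in the counts, differs between the lists. RefSeq promoters (build GRCm38.p6, 250 bases before to 50 after the start) were matched for 35 of the 43 members; Mcm4, Gins2, Ccne2, Ccna2, Aurkb, Kif20a, Tpx2 and Stmn1 had no match. Motifs were searched on both strands, as TTTGAA for the CHR, CCAAT for the CCAAT box, and TTTCCCGC, TTTCGCGC, TTTGGCGC or TTTGCCGC for E2F. A gene with several promoters counted as holding a motif if any of them did. The CHR stood in 15 of 20 G2/M promoters (75.0%) and in 1 of 13 S promoters (7.69%), against 20.2% of the promoters of all 27025 genes in the table. The E2F motif stood in 6 of 13 S promoters (46.2%) and 1 of 20 G2/M promoters (5.00%), against 2.605% of all. CCAAT was common everywhere, in 18 of 20 G2/M promoters and 8 of 13 S promoters, against 41.1% of all. The CHR and CCAAT stood together in 75.0% of G2/M and 7.69% of S promoters, against 8.97% of all. A match is a description of the sequence and does not show binding. In the 6 promoters below, given 5′ to 3′ on the gene's strand, capitals mark these motifs or their reverse complements; E2F matches on opposite strands can overlap each other. Mki67, Top2a, Ccnb2 and Cdkn3, of the G2/M list, hold the CHR and CCAAT, while Mcm5 and Mcm6, of the S list, hold E2F and CCAAT motifs. These are examples of the split between the lists, and other members depart from it. Of the G2/M list, Birc5 holds none of the motifs and Cdk1 holds E2F beside the CHR and CCAAT. Pcna and Rrm2, of the S list, hold CCAAT but neither E2F nor the CHR.
Mki67 promoter, chr7:135716330-135716629, minus strand: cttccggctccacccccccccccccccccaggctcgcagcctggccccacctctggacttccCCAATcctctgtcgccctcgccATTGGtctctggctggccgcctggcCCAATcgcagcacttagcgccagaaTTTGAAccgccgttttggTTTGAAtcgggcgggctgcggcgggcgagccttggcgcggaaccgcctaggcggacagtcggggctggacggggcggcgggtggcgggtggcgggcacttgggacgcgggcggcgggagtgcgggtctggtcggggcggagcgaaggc
Top2a promoter, chr11:99024140-99024439, minus strand: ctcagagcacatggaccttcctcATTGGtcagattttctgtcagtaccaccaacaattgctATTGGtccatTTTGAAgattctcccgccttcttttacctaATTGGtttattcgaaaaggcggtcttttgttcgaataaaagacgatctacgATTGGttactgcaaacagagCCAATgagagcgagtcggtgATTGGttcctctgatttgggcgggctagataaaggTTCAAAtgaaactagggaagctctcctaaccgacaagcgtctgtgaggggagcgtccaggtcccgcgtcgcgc
Ccnb2 promoter, chr9:70421505-70421804, minus strand: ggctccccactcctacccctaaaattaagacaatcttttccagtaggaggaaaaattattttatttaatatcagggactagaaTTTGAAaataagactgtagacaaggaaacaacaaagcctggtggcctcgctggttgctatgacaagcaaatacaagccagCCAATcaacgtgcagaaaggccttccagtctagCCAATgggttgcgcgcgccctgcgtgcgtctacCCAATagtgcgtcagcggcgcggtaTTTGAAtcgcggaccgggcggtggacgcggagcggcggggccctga
Cdkn3 promoter, chr14:46760291-46760590, plus strand: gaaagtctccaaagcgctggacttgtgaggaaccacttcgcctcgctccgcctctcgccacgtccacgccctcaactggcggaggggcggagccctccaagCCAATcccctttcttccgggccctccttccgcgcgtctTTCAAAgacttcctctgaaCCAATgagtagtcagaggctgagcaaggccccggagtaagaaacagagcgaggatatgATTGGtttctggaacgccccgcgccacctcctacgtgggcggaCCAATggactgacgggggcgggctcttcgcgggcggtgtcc
Mcm5 promoter, chr8:75109259-75109558, plus strand: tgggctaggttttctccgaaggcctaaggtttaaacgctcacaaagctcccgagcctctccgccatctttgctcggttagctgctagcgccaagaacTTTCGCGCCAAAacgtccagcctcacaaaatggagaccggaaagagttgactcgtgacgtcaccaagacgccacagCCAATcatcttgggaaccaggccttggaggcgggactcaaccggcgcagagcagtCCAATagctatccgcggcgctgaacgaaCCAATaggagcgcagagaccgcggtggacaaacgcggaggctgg
Mcm6 promoter, chr1:128359656-128359955, minus strand: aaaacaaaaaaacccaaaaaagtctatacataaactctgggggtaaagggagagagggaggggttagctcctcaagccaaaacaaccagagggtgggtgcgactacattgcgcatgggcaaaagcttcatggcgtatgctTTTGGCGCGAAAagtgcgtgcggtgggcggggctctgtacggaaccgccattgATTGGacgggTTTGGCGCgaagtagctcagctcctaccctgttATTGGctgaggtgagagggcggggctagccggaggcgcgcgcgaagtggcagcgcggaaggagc

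Before the results, the libraries need a word. The cells came from 12 plates, lettered A to L in order of stage, and except for plate E, which held 5w replicate 1 and 8w replicate 1, each plate held mice of 1 stage, so stage and plate cannot be told apart. Per mouse, 113 to 1269 cells were annotated, with a median of 4816 to 43114 non-mitochondrial UMIs per cell. Plate F, with 5w replicates 2 and 3, had no annotated CM, and its members stood high, so several of the T results are also given without it. On plates G, H and K the authors' annotation gave more UMIs per cell than the matrix holds outside mitochondrial genes, with a median ratio of matrix to annotation of 0.545, 0.805 and 0.481, whereas that ratio was 1 on the other plates. Cell names hold the plate and the well; 0 names occurred more than 1 time, although 3555 of 4660 well positions were used on more than 1 plate. The 43 members took 0.0696% of the non-mitochondrial UMIs. Of 17366 values above 0 for a member in a cell, 45.4% were a single UMI, and the highest was 1940.

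Member transcripts were spread thinly over many cells but were piled up in few. A member UMI was found in 6988 cells (60.8%), yet the 100 cells with most G2/M UMIs held 67.9% of all G2/M UMIs, and 45 of these were T, 35 MP, 10 EC, 5 CM, 3 FB and 2 GN. To set cells of different depth side by side, each was thinned at random to 2000 non-mitochondrial UMIs, which left out 183 CM, 110 FB, 28 EC, 25 MP, 9 T and 6 GN that were shallower. A cell with at least 3 different members of a list after thinning is called G2/M-marked or S-marked below. This is a count of transcripts and not a call of cycle phase.

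T and MP held most of the marked cells. G2/M-marked were 76 of 597 T (12.7%, 95% exact interval 10.2 to 15.7%) and 49 of 1388 MP (3.53%, 2.62 to 4.64%). In the other types there were 7 of 1830 EC (0.383%), 2 of 1665 FB (0.120%) and 5 of 5473 CM (0.0914%, 0.0297 to 0.213%). GN had 0 of 175 cells; 3 counts would be a share of 1.71%, and the upper end of the 95% exact interval is 2.09%. S-marked were 39 T (6.53%), 14 MP (1.01%), 3 EC (0.164%), 1 FB (0.0601%), 4 CM (0.0731%) and 0 GN. The intervals cover counting error only. Without thinning, the G2/M shares were 19.97% of T, 11.5% of MP, 6.40% of EC, 3.31% of GN, 2.82% of FB and 2.10% of CM, at median depths of 14766, 22286, 17110, 11756, 18335 and 12469 non-mitochondrial UMIs. The thinned share in CM, a type of which little division is known in the adult, is taken as a point of comparison, although plate F held no annotated CM. Whether the marked CM were dividing was not tested. Marked T were themselves deep cells, with a median of 26590.5 non-mitochondrial UMIs before thinning against 13982 in the other T, and for MP these values were 26465 and 22458. Of the 76 G2/M-marked T, 27 were among the 43 T of plate F and 49 among the 554 T of the other plates. In marked T the median cell had 5 G2/M members at the thinned depth and the highest 16.

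Marks of both lists met in the same cell mainly in T. Of T, 28 cells were marked for both lists, 48 for G2/M alone and 11 for S alone. Of MP, 4 were marked for both, 45 for G2/M alone and 10 for S alone. The difference in overlap between T and MP was not tested.

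Member by member, the share of cells with a UMI at the thinned depth was highest in T, among CM, FB, EC, MP and T, for 37 of 43 members, 22 of 24 in the G2/M list and 12 of 16 in the S list. The exceptions were Pcna, Gins2, Kif20a and Kif23, highest in MP, Ung, a glycosylase that removes uracil from DNA, highest in CM, and Cdc6, a loader of the replicative helicase, highest in EC. The median share over the G2/M list was 3.27% in T, 1.01% in MP, 0.546% in EC, 0.240% in FB and 0.183% in CM. Over the S list it was 2.60% in T, 1.30% in MP, 0.792% in EC, 0.480% in FB and 0.384% in CM.

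**Figure D1:**
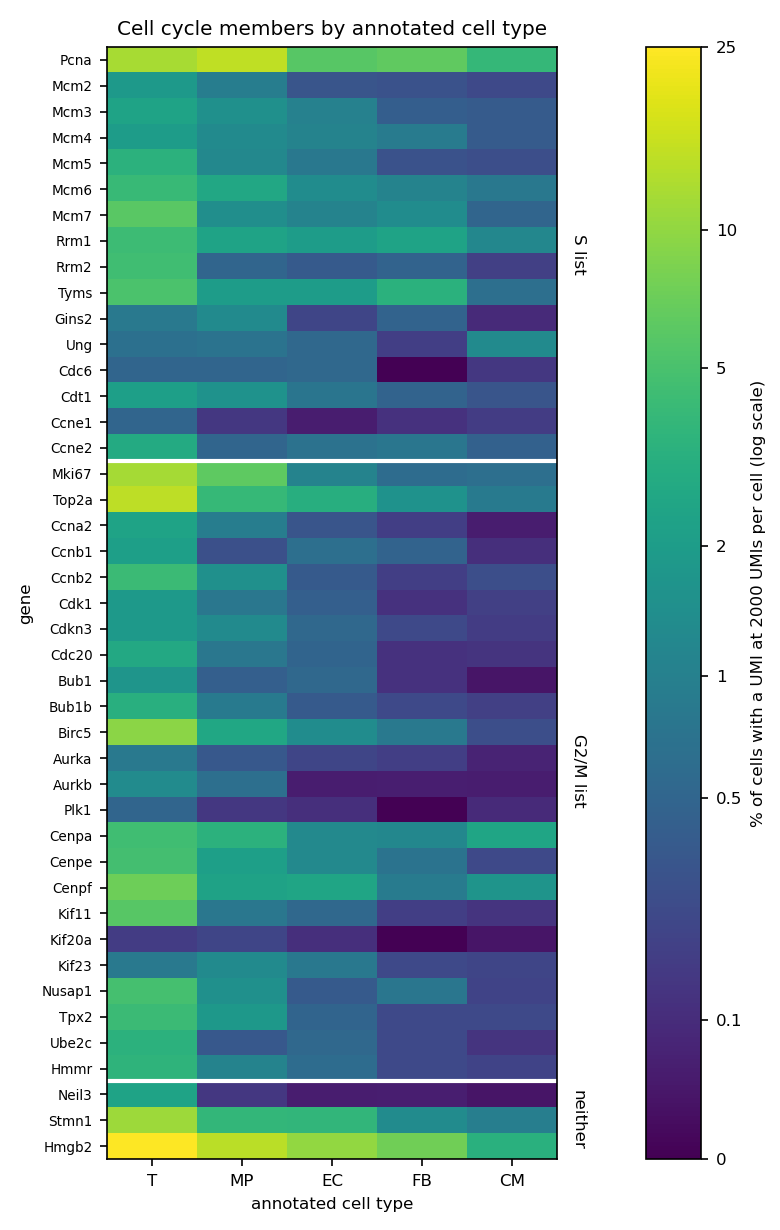
Share of cells with a UMI of each member (rows, by list) in T, MP, EC, FB and CM (columns), with every cell thinned to 2000 non-mitochondrial UMIs; the colour scale is logarithmic in percent plus 0.1. The T column is the brightest in 37 of 43 rows, and Pcna and Hmgb2 are seen in every type.

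Of the replication genes, Pcna was the most widely seen, in 12.1% of T, 14.7% of MP, 5.85% of EC, 6.37% of FB and 3.82% of CM. The helicase subunit Mcm5 was found in 3.35% of T and 1.22% of MP, and Mcm3 in 2.35% of T and 1.51% of MP, against 0.274% and 0.384% of CM. Mcm6, of the same ring, was found in 4.02% of T, 2.67% of MP and 0.804% of CM. Rrm2, the regulated subunit of ribonucleotide reductase, was more restricted, with 4.52% of T against 0.504% of MP and 0.183% of CM. In T of the plates other than F, Pcna was found in 9.21% and Rrm2 in 3.25%.

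Of the mitotic genes, Top2a was found in 14.2% of T, 3.96% of MP, 3.11% of EC, 1.56% of FB and 0.859% of CM. Mki67, whose protein coats mitotic chromosomes and is the usual marker of dividing cells, was found in 11.9% of T, 6.27% of MP, 1.09% of EC, 0.601% of FB and 0.658% of CM. Birc5, a subunit of the chromosomal passenger complex, was found in 9.55% of T, 2.59% of MP and 0.274% of CM. Ccnb2, a B-type cyclin, and its kinase Cdk1 were found in 4.19% and 1.84% of T, in 1.51% and 0.793% of MP, and in 0.274% and 0.183% of CM. Ube2c, which hands ubiquitin to the anaphase-promoting complex, was found in 3.35% of T, 0.360% of MP and 0.128% of CM. The centromeric histone Cenpa was less selective, with 4.52% of T, 3.39% of MP and 2.45% of CM. In T of the plates other than F, Top2a was found in 10.6%, Mki67 in 8.12% and Birc5 in 6.32%.

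Of the members in neither list, Hmgb2, a chromatin protein, was found in 25.0% of T, 14.1% of MP, 10.1% of EC, 7.45% of FB and 3.23% of CM, and in 18.9% of GN. Stmn1, which destabilises microtubules, was found in 11.1% of T, 3.75% of MP, 3.72% of EC, 1.32% of FB and 0.968% of CM. Neil3, a DNA repair glycosylase, was found in 2.35% of T, against 0.144% of MP and 0.0365% of CM. Of the T with Neil3, 12 were on plate F (27.9% of its T) and 2 on the other plates (0.361%). In GN, with 175 cells, Mki67 was found in 4.57% and Kif23 in 4.00%, although 0 GN were marked.

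T and MP were also compared with the other types within mice. Over mice with at least 20 eligible cells of both types, G2/M-marked cells made up 7.79% ± 5.75 of T against 0.117% ± 0.183 of CM (mean ± SD, n = 8 mice; T higher in 7 mice, lower in 0). T also exceeded FB (13.9% ± 19.0 against 0.0900% ± 0.181, n = 9; higher in 8 mice, lower in 1) and EC (7.79% ± 5.75 against 0.328% ± 0.409, n = 8; higher in 7, lower in 0). MP exceeded CM (2.72% ± 2.79 against 0.0853% ± 0.163, n = 11; higher in 7, lower in 0), FB (2.497% ± 2.78 against 0.0675% ± 0.159, n = 12; higher in 7, lower in 1) and EC (2.996% ± 2.79 against 0.262% ± 0.386, n = 10; higher in 7, lower in 1). For S-marked cells, T exceeded MP (8.33% ± 12.6 against 0.988% ± 1.26, n = 9; higher in 7, lower in 0), CM (4.68% ± 6.72 against 0.149% ± 0.284, n = 8), EC (4.68% ± 6.72 against 0.176% ± 0.254, n = 8) and FB (8.33% ± 12.6 against 0.0510% ± 0.153, n = 9).

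In each of these 10 comparisons the exact two-sided sign-flip test over mice gave an adjusted p of 0.0312 (Benjamini-Hochberg over the 20 pairs and lists compared). For G2/M-marked cells in T against MP, the difference was 10.8 percentage points (n = 9; T higher in 6 mice, lower in 2) and the adjusted exact p was 0.0568, which missed the threshold. The other 9 comparisons, among EC, FB and CM and of S marks between MP and these, did not pass, with adjusted exact p from 0.179 to 0.938. With mice left out 1 at a time the number of comparisons past the threshold went to 0 without 0w replicate 1 or 2, 2w replicate 1 or 2, 5w replicate 1, 8w replicate 1 or 11w replicate 2, where the adjusted p was at most 0.0625 for these 10 comparisons. Mice with equal shares in both types add nothing to the exact test. Each differing mouse left out raises the smallest p that it can give. Without the mice of plate F, S-marked cells in T against MP missed the threshold (adjusted exact p = 0.0625), and the other 9 stood at 0.0347. The cell types are the authors' annotation of the same cells, so these are differences between annotated groups. CM and the other types also came largely from different plates in several mice. Plates A and B, with the same 0w mice, held 912 CM among 1175 cells and 22 among 1303. Plates C and D, with the same 2w mice, held 991 among 1200 and 174 among 1097. The part of plate in the comparisons with CM was not tested.

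Transcripts of several G2/M genes were found together in the same cells annotated T. Of 71 T with a Mki67 UMI at the thinned depth, 56 (78.9%, 95% exact interval 67.6 to 87.7%) had at least 2 other G2/M members, against 7.60% of the T without Mki67. In MP these were 32 of 87 cells (36.8%, 26.7 to 47.8%) against 36 of 1301 (2.77%). In CM only 3 of 36 cells with Mki67 (8.33%, 1.75 to 22.5%) had at least 2 others, against 21 of 5437 without it (0.386%), and in EC 3 of 20 (15.0%) against 37 of 1810 (2.04%). Pcna was a weaker companion, since 38 of 72 T with it (52.8%) and 20 of 204 MP with it (9.80%) had at least 2 G2/M members. Of 134 CM with Cenpa, 1 (0.746%) had at least 2 other G2/M members, against 16 of 27 T with Cenpa (59.3%). These counts are over cells, with those of plate F included, and carry no test.

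Summed levels gave the balance of the lists. The G2/M list, summed over all cells of a mouse at the thinned depth, exceeded the S list in 8 of 9 mice in T, 6 of 13 in MP, 4 of 14 in CM, 3 of 10 in EC and 1 of 12 in FB. In T, G2/M sums ran from 182 to 9396 CPM (the usual CPM, over thinned non-mitochondrial UMIs) with a median of 992 CPM, and S sums from 125 to 1938 CPM with a median of 362 CPM. In MP the medians were 220 CPM for G2/M and 299 CPM for S, and in CM 54.0 CPM for G2/M and 96.6 CPM for S. The lists differ in the number and length of their genes, so the balance is not an amount of cells in a phase. Single members also weigh unequally by type. Over the pooled thinned cells, Pcna alone stood at 155 CPM in T, 146 CPM in MP and 30.4 CPM in CM. Its part in the balance was not tested.

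The marked cells gathered in a pair of subclusters of the authors' annotation, T5 and MP9. Since the subclusters were made from these cells, their members are given as a description. In T5, 28 of 36 cells (77.8%) were G2/M-marked and 23 (63.9%) S-marked. In MP9, 27 of 29 cells (93.1%) were G2/M-marked but 2 (6.90%) S-marked. That S-marked share was still the highest of the MP subclusters, before MP5 with 5 of 222 (2.25%). Without thinning, 10 of 30 MP9 cells (33.3%) were S-marked. Elsewhere in T, G2/M-marked cells were 20 of 195 in T1, 17 of 136 in T2, 5 of 143 in T3 and 6 of 87 in T4, and in MP the next subcluster was MP1 with 11 of 224. Outside T and MP the highest shares were in FB10, with 2 of 37 cells, and EC2, with 1 of 86, both counts of 1 or 2 cells.

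**Figure D2:**
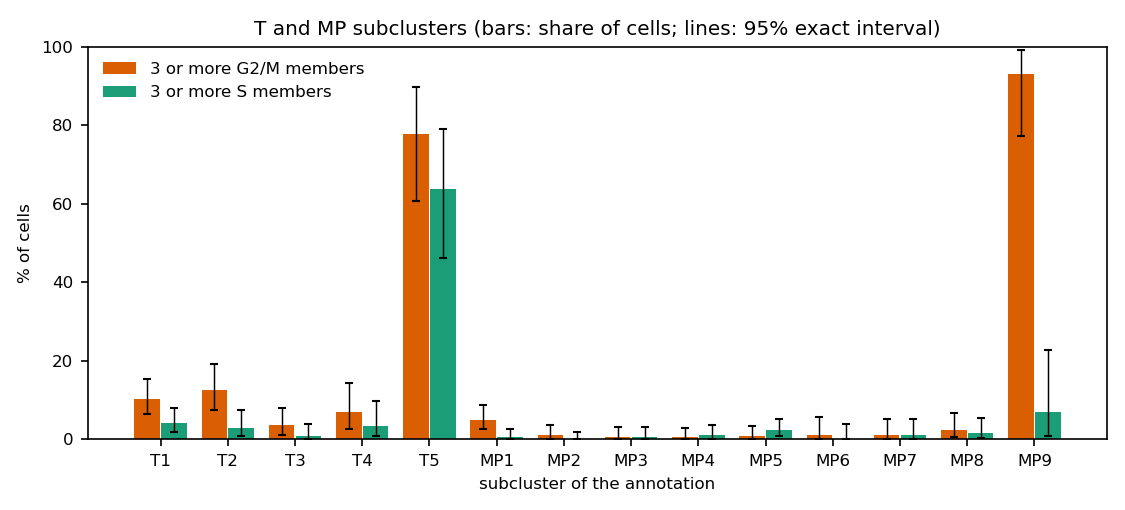
Share of cells with at least 3 G2/M members (left bar of each pair) and at least 3 S members (right bar) in each T and MP subcluster, in percent of cells thinned to 2000 UMIs, with 95% exact intervals. T5 is high for both lists (77.8% and 63.9%), MP9 mainly for G2/M (93.1% and 6.90%). The S-marked share of MP9 is still the highest of the MP subclusters, before MP5 with 2.25%.

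Both subclusters had the mitotic genes, and they parted on several but not all replication genes. Mki67 was found in 72.2% of T5 and 72.4% of MP9, against 8.02% of other T and 4.86% of other MP. Birc5 was found in 66.7% of T5 and 69.0% of MP9. Top2a was found in 80.6% of T5 and 48.3% of MP9. Among replication genes, Mcm7 was found in 47.2% of T5 and 3.45% of MP9, Tyms in 36.1% and 3.45%, Rrm2 in 33.3% and 6.90%, and Pcna in 61.1% and 24.1%. Neil3 was found in 33.3% of T5 and 3.45% of MP9, against 0.357% of other T. Cdkn3, a phosphatase that acts on cyclin-dependent kinases, went the other way, with 11.1% of T5 and 34.5% of MP9.

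The mice behind T5 and MP9 were not alike. Of the 36 T5 cells, 13 came from 5w replicate 2 and 17 from 5w replicate 3, both on plate F, 3 from 5w replicate 1, and 1 each from 0w replicate 2, 2w replicate 2 and 5w replicate 7. The 30 MP9 cells, of which 29 were deep enough, came from 0w replicate 1 (1 cell) and 2 (8), 2w replicate 1 (5) and 2 (6), 5w replicate 1 (6) and 7 (1), and 11w replicate 2 (3). MP9 thus drew on 7 mice and 4 stages, and T5 mainly on 1 plate.

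The labels of these cells were set beside marker genes. Of T5, 94.4% had at least 2 of 7 T cell markers, and 61.1% had at least 2 of 11 thymocyte markers, that is genes of T cells maturing in the thymus. Dntt, the terminal transferase of developing lymphocytes, was found in 18 of 36 T5 cells and Cd8b1 in 41.7%, whereas Ptcra and Rag2 of the same list were at 0 in T5. In all T of plate F, 58.1% of 43 cells had at least 2 thymocyte markers, against 15.3% of 554 T on the other plates. Markers of further blood cells were also more common in the T of plate F than on the other plates, with at least 2 neutrophil markers in 37.2% against 1.44% and at least 2 erythroid markers in 100% against 57.0%. In T5 these were 30.6% for neutrophil and 83.3% for erythroid markers. Among G2/M-marked T, at least 2 T cell markers were found in 27 of 27 cells (100%) on plate F but in 18 of 49 (36.7%) on the other plates, where 61.2% had at least 2 cardiomyocyte markers. All T of the other plates were similar, with 31.8% for T cell and 65.3% for cardiomyocyte markers. The T annotation was mixed in other subclusters too. T3 had at least 2 B cell markers in 46.2% of cells and at least 2 T cell markers in 5.59%, T2 had at least 2 cardiomyocyte markers in 100% of cells, and T4 had at least 2 natural killer markers in 17.2%. The part of these markers in the results for T was not tested.

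MP9 had at least 2 of 7 macrophage markers in 96.6% of its cells, at least 2 T cell markers in 3.45% and at least 2 cardiomyocyte markers in 34.5%. In the 4 mice with at least 5 G2/M-marked MP, the markers of recruited monocytes summed to 34.7 ± 41.7 CPM in marked MP against 162 ± 36.0 CPM in the other MP (SD), lower in 4 of 4 mice. The markers of resident macrophages summed to 2372 ± 895 CPM in marked MP against 2835 ± 883 CPM in the others, higher in 1 of 4 mice. The general macrophage markers were lower in 4 of 4 mice as well, with 10793 ± 1394 CPM in marked MP against 13434 ± 3316 CPM in the others. The exact two-sided sign-flip p was 0.125 for the recruited monocyte and macrophage markers and 0.625 for the resident markers, and 0.125 is the smallest p that 4 mice allow, so no difference was past the threshold.

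Across stages, the share of marked T and MP moved in different ways, but with 1 to 4 mice a stage no trend passed the test. In T, G2/M-marked cells made up 5.80% and 8.33% in 0w mice, 10.3% and 17.0% in 2w mice, 13.8% and 62.5% in 5w mice, 4.88% in the 1 mouse of 8w, and 0% and 2.27% in 11w mice. At 5w, replicate 2, left out for having 19 eligible cells, had 12 marked. Of the mice counted, those at 11w were the lowest. The T of these mice were also shallow, with a median of 5642 non-mitochondrial UMIs per cell, against 15329 to 22087.5 at the earlier stages. The part of depth beyond the thinning was not tested. S-marked T made up 1.45% and 1.67% in 0w mice, 2.56% and 6.38% in 2w mice, 20.7% and 37.5% in 5w mice, 2.44% in the 8w mouse, and 0% and 2.27% in 11w mice.

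In MP, G2/M-marked cells made up 2.44% and 8.84% in 0w mice, 5.46% and 3.85% in 2w mice, 3.63%, 0%, 0% and 0% in 5w mice, 0%, 2.08% and 0% in 8w mice, and 0% and 3.66% in 11w mice. S-marked MP were 0% in both mice at 0w and both at 11w, 1.64% and 3.21% in 2w mice, 1.61% in 5w replicate 1 and 2.44% in 8w replicate 1, and 0% in the other 5w and 8w mice. The number of eligible MP was 248 in 5w replicate 1 and 27 to 31 in the other 3 mice of that stage, in which a count of 0 leaves room for a share of several percent.

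**Figure D3:**
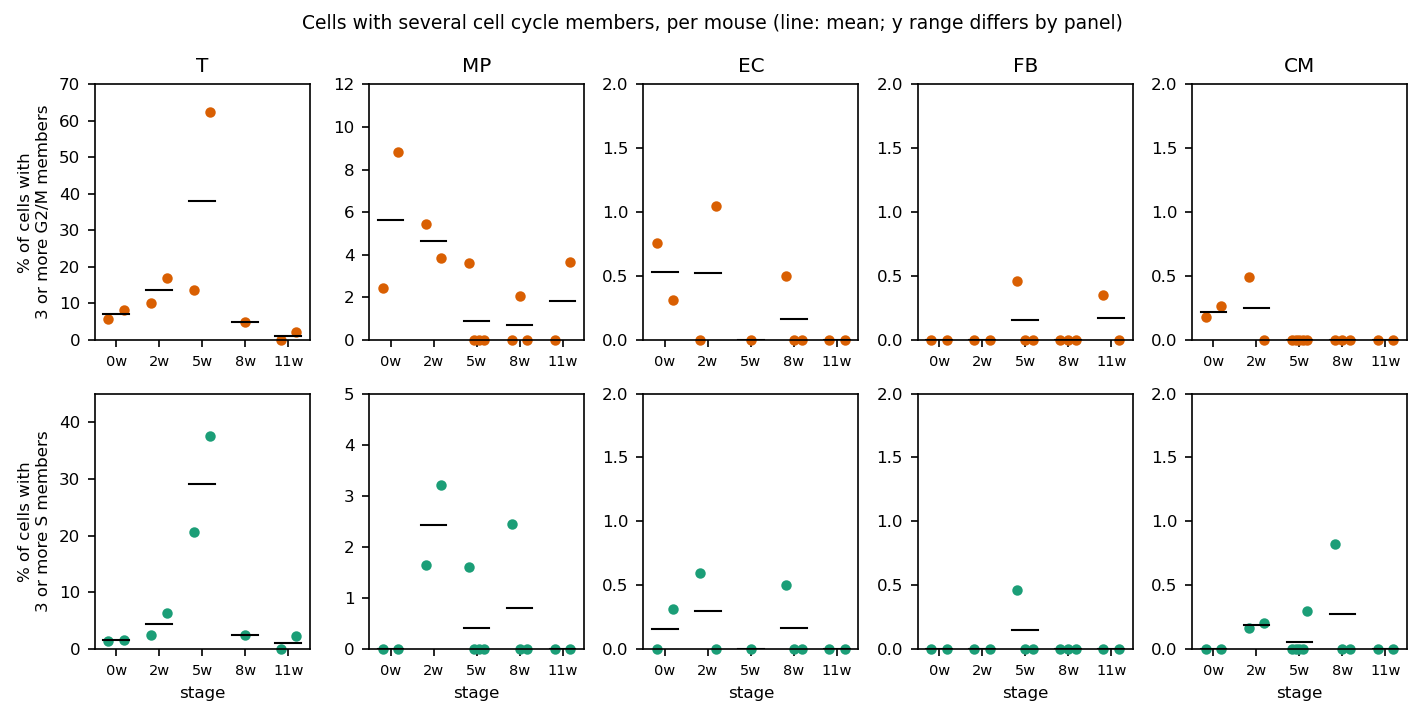
Share of cells with at least 3 G2/M members (upper row) and at least 3 S members (lower row) by stage in each cell type, in percent of cells thinned to 2000 UMIs; 1 point per mouse with at least 20 eligible cells, and a line at the mean. The y ranges differ; T at 5w reaches 62.5% and 37.5%, and the CM, FB and EC panels end at 2%.

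The permutation test across the 5 stages (100000 permutations of the stage labels over mice) passed the threshold of 0.05 for 0 of the 10 combinations of type and list. The smallest adjusted p was 0.360, for G2/M in CM and MP and S in MP and T, with an unadjusted permutation p of 0.0804, 0.134, 0.144 and 0.0577. In CM, there were 2 G2/M-marked cells in 0w mice, 3 in 2w mice and 0 in the later ones. CM was past the threshold without 2w replicate 2 (adjusted permutation p = 0.0245) and without thinning (adjusted permutation p = 0.00640), where the mean share was 8.72% in 0w mice, 2.80% in 2w mice, 0.146% in 5w mice, 0.657% in 8w mice and 0% in 11w mice. CM depth was highest where these shares were, with a median of 21727.5 non-mitochondrial UMIs per cell in 0w mice, 15287 in 2w mice and 9417.5 to 12164 in the later ones; its part in these shares was not tested.

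Summed levels of each member per mouse and type were then compared by edgeR. Here CPM are scaled by all UMIs of the sum, on edgeR's normalized library sizes, and a change of the sum can mean fewer cells with the transcript or less RNA per cell, which cannot be told apart. In T, 42 of the 43 members passed the filter on low counts, and 7 were lower in 8w and 11w mice (the late mice) than in 5w mice at an adjusted p under 0.05, with 0 higher. The background of this comparison was 30 of 12109 genes called (0.248%), 14 of them lower (0.116%). The median log2 fold change was -3.83 over the 42 members and -0.83 over all genes tested, so the whole comparison was shifted. Mitochondrial content differed as well. UMIs outside mitochondrial genes were 1149317 of 1463113, 594110 of 690259 and 483837 of 675697 in T of 5w replicates 1, 2 and 3. They were 2017340 of 3654232 and 207428 of 336113 in 8w replicates 1 and 3. In 11w replicates 1 and 2 they were 141121 of 356605 and 598488 of 2503652. Leaving out mitochondrial genes lowered the number called, as the closing section gives. The part of this difference in the shift was not tested. All 42 fold changes were negative, and in 26 of 42 members every 8w and 11w mouse lay below every 5w mouse, as in 8.8% of all genes tested.

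Cdkn3 was at 0 CPM in 8w replicates 1 and 3 and 11w replicates 1 and 2, against 99.5, 17.8 and 134 CPM in 5w replicates 1, 2 and 3. Its adjusted p was 0.00716 (edgeR quasi-likelihood). Against the floor of 3 counts over the late sums, on the normalized library sizes, it was at least 140.2-fold lower. This fold, like the others set against that floor, counts UMIs as if they were separate. Over all stages, 2483 Cdkn3 UMIs lay in 29 T. The fold therefore describes the sums and does not bound the change in the share of cells. The groups did not overlap, and the level in 2w mice, 376 and 98.3 CPM, was as high as at 5w.

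Ccnb1, the main B-type cyclin of mitosis, was at 0 CPM in the 4 late mice, against 4.4, 12.4 and 966 CPM in 5w mice (adjusted p = 0.0193, at least 364-fold lower on the same scale). Neil3 was at 0 CPM in the late mice, against 8.4, 141 and 278 CPM in 5w mice (adjusted p = 0.0184, at least 178-fold lower). Both folds rest mainly on the mice of plate F, and for Ccnb1 on replicate 3 alone.

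Top2a had 428 and 0 CPM in 8w mice and 6.2 and 4.3 CPM in 11w mice, against 478, 556 and 975 CPM in 5w mice (log2 fold change -4.33 ± 0.93 SE, adjusted p = 0.0415). The 8w replicate 1 was thus near the 5w mice, and the other late mice far below. Cenpf, a kinetochore protein, had 78.7 and 0 CPM in 8w mice and 0 and 0 CPM in 11w mice, against 40.5, 119 and 435 CPM in 5w mice (log2 fold change -7.14 ± 1.55 SE, adjusted p = 0.0448), and its groups overlapped.

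Of the S list, Pcna and Ccne2 were called. Pcna had 78.5 and 83.6 CPM in 8w mice and 9.3 and 12.9 CPM in 11w mice, against 312, 443 and 293 CPM in 5w mice (log2 fold change -3.53 ± 0.73 SE, adjusted p = 0.0286). The groups did not overlap, and 11w was lowest. Ccne2, a cyclin that starts S phase, had 2.3 and 0 CPM in 8w mice and 0 and 0 CPM in 11w mice, against 200, 9.6 and 70.9 CPM in 5w mice (log2 fold change -8.37 ± 1.84 SE, adjusted p = 0.0486).

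**Figure D4:**
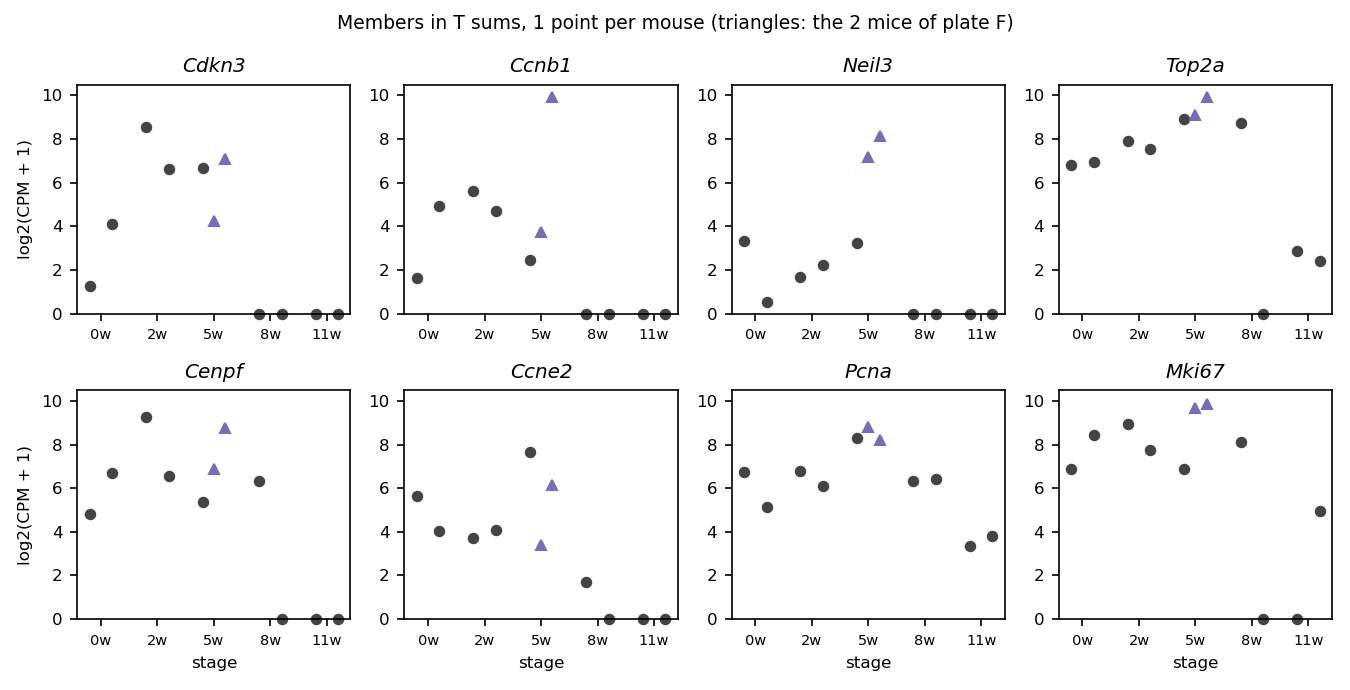
Level of the 7 members called in T and of Mki67 in log2(CPM + 1) by stage, 1 point per mouse with at least 10 T; triangles mark the 2 mice of plate F. Cdkn3, Ccnb1 and Neil3 are at 0 in the 4 mice at 8w and 11w, and Top2a and Mki67 stay high in 8w replicate 1.

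On plate E, the only plate with a mouse of both groups, 8w replicate 1 against 5w replicate 1 had 0 against 99.5 CPM of Cdkn3, 78.5 against 312 CPM of Pcna and 428 against 478 CPM of Top2a. The order was the other way there for Cenpf, with 78.7 against 40.5 CPM, and Mki67, with 275 against 115 CPM. The number called depended on few mice. Without the 2 mice of plate F, or without the T5 cells, 5w replicate 1 was the only 5w mouse with enough T. No number is given for these settings. The number called was 0 without 11w replicate 2, 1 without 5w replicate 3 or without 11w replicate 1, 3 without 8w replicate 3, 4 without 5w replicate 1 and 12 without 0w replicate 2. DESeq2 called 22.

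Other members of the T sums did not pass. Mki67 had 275 and 0 CPM in 8w mice and 0 and 30.1 CPM in 11w mice, against 115, 828 and 919 CPM in 5w mice (adjusted p = 0.193). Birc5 had 83.9 and 0 CPM in 8w mice and 0 and 51.5 CPM in 11w mice, against 273, 718 and 244 CPM in 5w mice (adjusted p = 0.163). Rrm2 had 8.6 and 0 CPM in 8w mice and 0 and 7.5 CPM in 11w mice, against 107, 248 and 67.2 CPM in 5w mice (adjusted p = 0.0942), so that every late mouse lay below every 5w mouse.

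Mcm5 had 0 and 3.2 CPM in 8w mice and 3.1 and 1.1 CPM in 11w mice, against 55.0, 33.6 and 95.4 CPM in 5w mice, also without overlap (adjusted p = 0.187). Mcm6 had 6.0 and 0 CPM in 8w mice and 3.1 and 5.4 CPM in 11w mice, against 52.2, 86.4 and 104 CPM in 5w mice (adjusted p = 0.191). Mcm3 overlapped, with 0 to 42.9 CPM in late mice and 9.2 to 39.1 CPM in 5w mice (adjusted p = 0.536). Stmn1 did not overlap, with 3.2 to 74.2 CPM in late mice against 184 to 255 CPM in 5w mice (adjusted p = 0.190), nor did Hmgb2, with 86.6 to 197 CPM against 363 to 675 CPM (adjusted p = 0.193).

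Ccnb2 had 40.8 and 3.2 CPM in 8w mice and 27.8 and 0 CPM in 11w mice, against 6.4, 127 and 276 CPM in 5w mice (adjusted p = 0.245), and Cdk1 had 0 to 9.7 CPM in late mice against 12.7 to 64.2 CPM in 5w mice (adjusted p = 0.235). Ube2c had 0 to 89.1 CPM in late mice against 47.8 to 165 CPM in 5w mice (adjusted p = 0.452). For Ccnb2 the direction did not hold: without plate F it was higher in the late mice than in 5w replicate 1, the only 5w mouse left, at a log2 fold change of 1.46.

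The other contrasts in T had 0 members called. At 5w against 0w, 8 of 12109 genes were called (0.0661%), 14 of 42 members were higher and 0 lower at an unadjusted p under 0.05, a cut that 7.74% of all genes passed in either direction, and DESeq2 called 3. In 8w and 11w against 0w, 1 gene was called (0.00826%), 11 members were lower and 1 higher at an unadjusted p under 0.05, a cut that 12.3% of all genes passed, and DESeq2 called 3. The median log2 fold change of all genes was -0.82 there. At 2w against 0w, 0 genes were called (0%), and 5 members were higher and 1 lower at an unadjusted p under 0.05, against 6.90% of all genes. The 2 contrasts with the late mice share them, and those with 0w share its 2 mice.

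In EC, 1 of 36 members tested, Cdkn3, was lower in 8w and 11w mice than at 0w, where 111 of 14532 genes were called (0.764%), all lower. Cdkn3 was at 0 CPM in the 5 late mice, against 12.4 and 5.52 CPM at 0w (adjusted p = 0.0269, at least 98.3-fold lower against the floor of 3 counts over the late sums, on normalized library sizes). It had 0.35 and 0.28 CPM at 2w and 0 CPM in 4 mice at 5w. Birc5 missed the threshold, with 0 to 0.17 CPM in the late mice against 10.2 and 7.20 CPM at 0w (adjusted p = 0.0517). The median log2 fold change of the 20 G2/M members tested was -3.45, with 20 of 20 negative, and that of all genes -0.10. The call on Cdkn3 was lost, with 0 members called, without 0w replicate 1 or 2, 5w replicate 5, 8w replicate 1, or 11w replicate 1 or 2. It was kept without 5w replicate 3, with 2 members called, and without 2w replicate 1 or 2, with 3 called. Its log2 fold change was -9.43 and stayed between -9.79 and -7.57 over the 21 alternatives.

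No other contrast called a member. In MP, 0 of 13752 genes were called in each of the 4 contrasts (0%), although 22 of 23 G2/M members had a negative fold change in 8w and 11w against 0w (median log2 fold change -2.62 over the list and -0.16 over all genes) and 9 of them were lower at an unadjusted p under 0.05, a cut that 6.41% of all genes passed. Ube2c in MP had 0 to 0.31 CPM in the late mice against 0.81 and 4.98 CPM at 0w (adjusted p = 0.265). The S list in MP had 9 of 15 members positive in the same contrast. The other members of smallest p in MP were Hmmr, a spindle protein, at 5w against 0w (adjusted p = 0.431) and Cdkn3 in 8w and 11w against 0w (adjusted p = 0.297).

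In CM, 3 of 15893 genes were called in 8w and 11w against 5w (0.0189%) and 0 in the other 3 contrasts (0%). At 5w against 0w, 10 of the 20 G2/M members tested in CM were lower at an unadjusted p under 0.05, against 6.62% of all genes in either direction, and of 15 S members 1 was lower and 1 higher. The smallest p were those of Ccna2 (log2 fold change -4.99 ± 1.23 SE) and Cdk1 (-5.29 ± 1.30 SE), both at an adjusted p of 0.340, and that of Ccnb2 in 8w and 11w against 0w (-6.07, adjusted p = 0.576). These levels were close to 0. Ccna2 had 0.340 and 0.592 CPM at 0w and at most 0.0453 CPM at 5w, and Cdk1 0.451 and 0.567 CPM and at most 0.0251 CPM. Ccnb2 had 0.551 and 0.958 CPM at 0w and at most 0.0636 CPM in the late mice. In FB, 12 of 15427 genes were called in 8w and 11w against 0w (0.0778%) and 0 in the others (0%). Hmmr and Rrm2 in FB had log2 fold changes of -4.64 ± 1.42 and -4.21 ± 1.35 SE there (adjusted p = 0.263 and 0.293), and Ccnb1 in 8w and 11w against 5w had -4.22 (adjusted p = 0.344). In EC, 1 gene was called at 5w against 0w (0.00688%) and 0 at 2w against 0w and in 8w and 11w against 5w (0%). Cenpf in EC had a log2 fold change of -8.02 ± 1.96 SE at 5w against 0w (adjusted p = 0.340). Over the 18 contrasts with 0 members called by edgeR, 0 to 14 members had an unadjusted p under 0.05. DESeq2 called 3 members in CM and 1 each in FB and MP for 8w and 11w against 5w, and 1 in EC for 5w against 0w.

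Genes of the cell cycle that are no members were counted from 5 further lists. In T, 8w and 11w against 5w, 2 of 17 further G2/M genes were lower, namely Cks1b, a subunit of cyclin-dependent kinase complexes (log2 fold change -5.78 ± 1.03 SE, adjusted p = 0.00850), and Racgap1, of the central spindle (-9.36 ± 1.94 SE, adjusted p = 0.0325). Of 14 further S genes 1 was lower, Uhrf1, which keeps DNA methylation through replication (-6.84 ± 1.25 SE, adjusted p = 0.0102), and Dtl missed the threshold (adjusted p = 0.0720). Of the G1 cyclins and kinases (6 tested), inhibitors (5) and E2F and RB genes (12), 0 passed in T. In CM, FB, EC and MP, 0 genes of the 5 lists passed in any contrast. The smallest p there were those of Cdkn1c, an inhibitor, in CM for 8w and 11w against 5w (log2 fold change -3.63 ± 0.80 SE, adjusted p = 0.166), and of Ckap2 in MP (-7.70 ± 1.82 SE, adjusted p = 0.103), Prc1 in EC (-5.53 ± 1.58 SE, adjusted p = 0.0804) and E2f7 in FB (-4.70 ± 1.58 SE, adjusted p = 0.315), each for 8w and 11w against 0w.

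With T sums of 13 to 180 cells per mouse, a level often rests on few cells. Where plate and stage coincide, the stage differences above, including the T levels at 5w on plate F, cannot be told apart from differences between plates.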

How the data were processed

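The deposited values were raw UMI counts per gene and cell, made by the authors; the submitters' processing notes name STAR 2.5.2b, featureCounts and Subread 1.4.6-p1, with builds mm10 and GRCh37. The sources used here do not give the collapsing of UMIs, the gene annotation or the strand setting, so overlapping genes cannot be separated. Cell types and subclusters are the authors' deposited annotation; 3 cells without a type were left out, no doublets were called here, and 0 columns were left unused.

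The members and lists were chosen with earlier results of these data known. The mouse was the replicate. Counts were summed per mouse and type (at least 10 cells) and fitted by edgeR 4.0.16 (filterByExpr, TMM, quasi-likelihood, Benjamini-Hochberg over all genes tested) in R 4.3.3, in 1 fit per type over all stages, with DESeq2 1.42.0 as an alternative. Per-cell shares came from cells thinned to 2000 non-mitochondrial UMIs (mitochondrial genes: 34) and were compared over mice with at least 20 such cells in Python 3.11.15 with scipy 1.17.1. Intervals are exact (Clopper-Pearson) and cover counting error only. The fits and tests were tested on simulated data. Named genes are every called member, the 3 with the smallest p per type, and 13 members named whatever their result. The closing section gives the effect of normalization, filter, thinning, mice and plates left out, and a replicate block.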

Additional observations from a re-analysis of the deposited data

Results flagged for a closer look

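Of 8 groups of 4 to 10 mice tested for a value far from the rest, 5 held one. The groups were CM and MP at 5w, each tested on the shares and summed levels of both lists, so they reuse the same mice. Chance gives about 1 in 20 for separate groups. That rate does not hold here, and least for the shares, where the other mice were all at 0% and a single marked cell is enough. In MP at 5w, replicate 1 stood apart, with 3.63% G2/M-marked and 1.61% S-marked cells against 0% in the other mice of that stage, which had 27 to 31 eligible MP each against 248. In CM at 5w, replicate 7 had 0.295% S-marked cells, 1 of 339, against 0% in the other mice. In CM at 5w, replicate 1 had a summed G2/M level of 292 CPM and a summed S level of 274 CPM, above the other CM of that stage. These sums came from 53 eligible cells, against 339 to 540 in the other mice.

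Among 128 pairs of types compared, 2 contrasts moved in opposite directions in every mouse. The share of G2/M-marked cells at 5w against 0w was higher in T, by 31.1 percentage points, and lower in CM, at -0.222 points. The summed G2/M level at 2w against 0w was higher in T, by 768 CPM, and lower in EC, at -220 CPM. Neither difference between types was tested.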

How the results depend on the processing

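The number of members called in T for 8w and 11w against 5w (7) moved with most settings. It was 11 with no filter, 22 with DESeq2, 13 with a replicate block, 2 without mitochondrial genes, 11 without 5w replicate 1 and 8w replicate 1, and 0 to 12 with 1 mouse left out. No number is given without 5w replicates 2 and 3 or without subclusters T5 and MP9, since each left 1 mouse at 5w. In T, 8w and 11w against 0w (0), it was 1 with no filter, 3 with DESeq2, 1 with a replicate block, 3 without 5w replicate 1 and 8w replicate 1, and 0 to 1 with 1 mouse left out, and for 5w against 0w (0) it was 3 with DESeq2. In EC, 8w and 11w against 0w (1), it was 2 with RLE factors, 3 with no filter, 2 with DESeq2, 0 with a replicate block, 0 with at least 20 cells, 0 without 5w replicate 1 and 8w replicate 1, 2 without 5w replicates 2 and 3, and 0 to 3 with 1 mouse left out. Elsewhere the main number was 0. In CM it was 1 for 5w against 0w with no filter or without 5w replicate 1 and 8w replicate 1, and for 8w and 11w against 5w 1 with no filter, 3 with DESeq2 and 1 with a replicate block. DESeq2 gave 1 in FB and 1 in MP for 8w and 11w against 5w, and 1 in EC for 5w against 0w. Of the stage tests on shares (0 past), 1 passed at 5000 UMIs, 3 with no thinning, 2 with members of at least 5 UMIs, and 0 to 1 with 1 mouse left out. Of the type comparisons (10 past), 0 passed with at least 5 members, 0 at 1000 UMIs, 0 without 5w replicate 1 and 8w replicate 1, and 0 to 10 with 1 mouse left out. Ccnb2 in T, 8w and 11w against 5w, changed sign to a log2 fold change of 1.46 without 5w replicates 2 and 3 and 3.11 without T5 and MP9, and Hmmr in MP, 5w against 0w, ranged from -5.44 to 0.24 with 1 mouse left out, positive without 0w replicate 2. Beyond fewer samples, the cause was not tested. Alternatives that leave out plate F or the subclusters, another thinning draw and the count of at least 5 UMIs were chosen after seeing the data. Replicate numbers did not pair the mice: of 92 same-numbered pairs, 4 had deviations correlated over 0.1 (median r 0.0068), all 4 being 5w replicate 1 with 8w replicate 1, the mice that share plate E, in CM, FB, EC and MP (r 0.127 to 0.206). Depth limits members found in few cells: 45.4% of values above 0 were a single UMI.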
